A study of Homo sapiens with 24 samples.

Results

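The genes described here are those of the proteasome: the subunits of its core particle, those of its regulatory particle, its activators, its inhibitor and its assembly factors. They were taken by name from the rows of both deposited raw count tables, as every protein-coding gene named PSM, then a letter from A to G, then a number, with the interferon-inducible PSMB8 and PSMB9 left out. This gave 46 of the 58735 genes in the tables, or 46 of 19951 protein-coding genes. They are 17 core genes (8 PSMA, 9 PSMB), 19 regulatory genes (6 PSMC, 13 PSMD), PSMD5 on its own, 4 activators (PSME), 1 inhibitor (PSMF1) and 4 assembly factors (PSMG). The rule uses names and no expression value. It was written, with PSMD5 as a part of its own, with earlier results of these data known.

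The proteasome degrades proteins that carry ubiquitin chains. Its core particle is a stack of rings: the outer rings are made of PSMA subunits, and the inner rings of PSMB subunits, among them the proteases PSMB5, PSMB6 and PSMB7. The regulatory particle has a base, which holds the ring of PSMC ATPases that unfolds substrates, and a lid, which holds the deubiquitinase PSMD14, and chaperones such as PSMD5, PSMD9 and PSMD10 bind the base while it is built. Subunit genes are known to be raised together by the transcription factor NFE2L1 (NRF1) when proteasome activity falls.

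The cells were HEK293T, a human embryonic kidney line, as unedited wild type (WT), as a line deleted for the microRNA gene MIR210 (MIR210-KO) and as a line deleted for its long non-coding host gene MIR210HG (MIR210HG-KO). Each genotype was kept for 24 hours in normoxia (21% O2) or hypoxia (1% O2), and RNA from 4 samples of each of the 6 groups was sequenced, 24 libraries in all. Whether a knockout line is 1 clone or a pool is not stated in the labels, and nothing there says that the 4 samples of a group came from separate cultures, so p-values measure the spread between these samples, which may be technical. Each oxygen level has its own deposited table, and oxygen and table cannot be told apart.

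Each library held between 25556776 and 37858947 counts on genes. MIR210HG had 0 counts in all 8 MIR210HG-KO libraries, against a mean of 5.70 CPM (counts scaled to 1000000 per library) in normoxia WT and 19.1 in hypoxia WT. It was read in MIR210-KO, at 3.48 CPM in normoxia and 20.7 in hypoxia; the microRNA itself was not analysed here. Epithelial and neuronal markers were present in every library (KRT8 19.6 to 125 CPM, KRT18 24.3 to 64.9, NEFL 63.3 to 273). Of defining blood and endothelial markers, PTPRC, CD3E and CDH5 were at 0 in 16, 22 and 16 of the 24 libraries and never passed 0.141 CPM. The summed level of the 5 epithelial markers was 173 to 202 CPM in the MIR210-KO libraries and 54.1 to 83.7 elsewhere, so it moved with that genotype. The summed level of the 4 neuronal markers moved with both genotype and oxygen. It was 119.6 to 124 CPM in normoxia and 168 to 188 in hypoxia MIR210HG-KO, against 277 to 299 and 522 to 631 in WT and 492 to 521 and 624 to 671 in MIR210-KO. The part of either marker list in the differences below was not tested.

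A set of 4 libraries was chosen after the data were seen. These are called the libraries that stood apart: hypoxia WT 1 and 3, hypoxia MIR210-KO 1 and normoxia MIR210HG-KO 3. Hypoxia WT split into pairs, with median log2 levels of the proteasome genes against normoxia WT of -0.33 and -0.24 in 1 and 3 and -0.52 and -0.50 in 2 and 4. Leaving out 1 and 3, the pair nearer normoxia, deepens the fall in WT and moves the knockouts' responses relative to WT upward. No fit without both 2 and 4 was made. In hypoxia WT the proteasome genes took 0.463, 0.401, 0.478 and 0.415% of all counts in libraries 1 to 4. The same libraries differed in the level of long genes (8000 bases or more) minus that of short genes (1500 bases or fewer), at 0.02, 0.36, -0.11 and 0.26 on the log2 scale. Libraries 1 and 3 were thus high in proteasome genes and low in long genes. Results that rest on these libraries are given with and without them.

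Levels were compared between genes as TPM, transcript levels computed per library from the counts and the deposited gene lengths. In normoxia WT the most abundant were core genes: PSMA7 at 511 TPM, PSMB4 at 492, PSMB3 at 476 and PSMB5 at 414. The 15 core genes with enough counts had a median of 187 TPM and the 19 regulatory genes a median of 99.6, with PSMD4, a ubiquitin receptor of the base, the highest regulatory gene at 260.4. PSMA8 and PSMB11, subunits known from testis and thymus, had at most 5 and 3 counts over the 4 libraries of any group and did not pass the filter on low counts, so 44 of the 46 genes were tested.

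**Figure D1:**
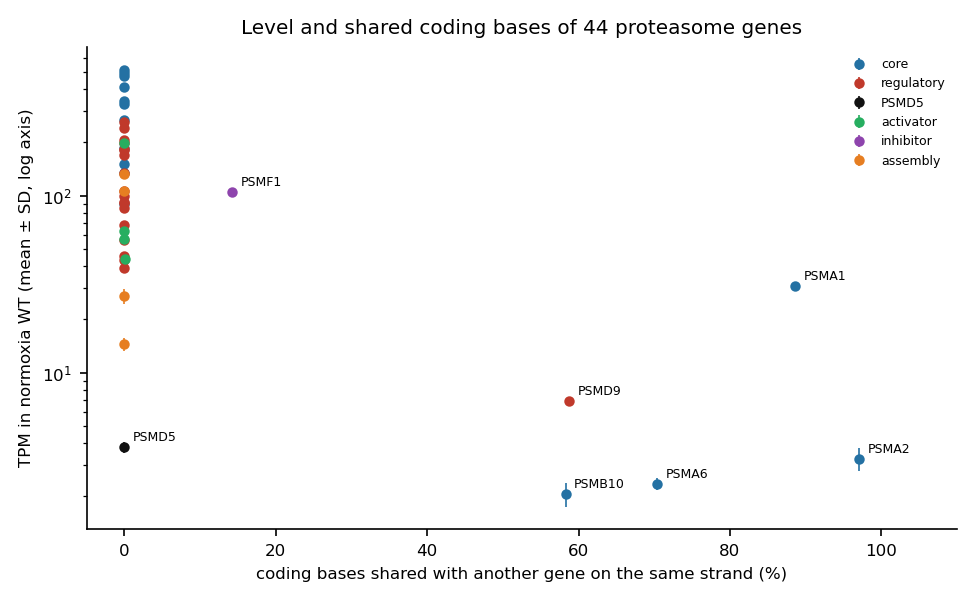
TPM in normoxia WT (mean ± SD of 4 libraries, log axis) against the share of each gene's coding bases that another annotated gene shares on the same strand, for the 44 tested genes, coloured by part. PSMD5 is low (3.79 TPM) with no shared coding bases, while PSMA1, PSMA2, PSMA6, PSMB10 and PSMD9 share 58.3 to 97.1% of theirs.

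The lowest levels were those of PSMD9 (6.90 TPM), PSMD5 (3.79), PSMA2 (3.26), PSMA6 (2.35) and PSMB10 (2.06). Of these 5 genes, 4 share most of their coding bases with another annotated gene on the same strand: 97.1% for PSMA2, 70.4% for PSMA6, 58.7% for PSMD9 and 58.3% for PSMB10. Reads from shared bases may have been left uncounted or assigned to the other gene, so the levels of these genes, and of PSMA1 (88.6% shared), are uncertain. PSMA2 and PSMA6 encode obligatory outer ring subunits. PSMD5 shares no exon base with any gene in the annotation, and its low level carries no such limit. The 32 pseudogenes named after proteasome genes summed to a mean of 2.21 CPM, against 5152 CPM for the genes themselves.

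In hypoxia most proteasome genes fell in each genotype. By edgeR's quasi-likelihood test with Benjamini-Hochberg adjustment over all 19952 tested genes, called at an adjusted p under 0.05, 30 of the 44 were lower and 1 was higher in WT, where 30.7% of all genes were called lower and 29.6% higher. In MIR210-KO 34 were lower and 1 higher (all genes 29.5% and 29.3%), and in MIR210HG-KO 37 were lower and 0 higher (28.3% and 25.7%). The median log2 change of the 44 was -0.38 in WT, -0.53 in MIR210-KO and -0.51 in MIR210HG-KO, beside 0.00, 0.04 and 0.03 over all genes. In 30, 35 and 36 of the 44 all 4 hypoxia libraries lay below all 4 normoxia libraries (27.6, 28.1 and 24.6% of all genes). Falls of at least 1.5-fold were called for 13, 20 and 17 of the 44 in WT, MIR210-KO and MIR210HG-KO (15.2, 12.0 and 10.9% of all genes). In bulk RNA, fewer cells with a transcript and less of it per cell cannot be told apart.

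**Figure D2:**
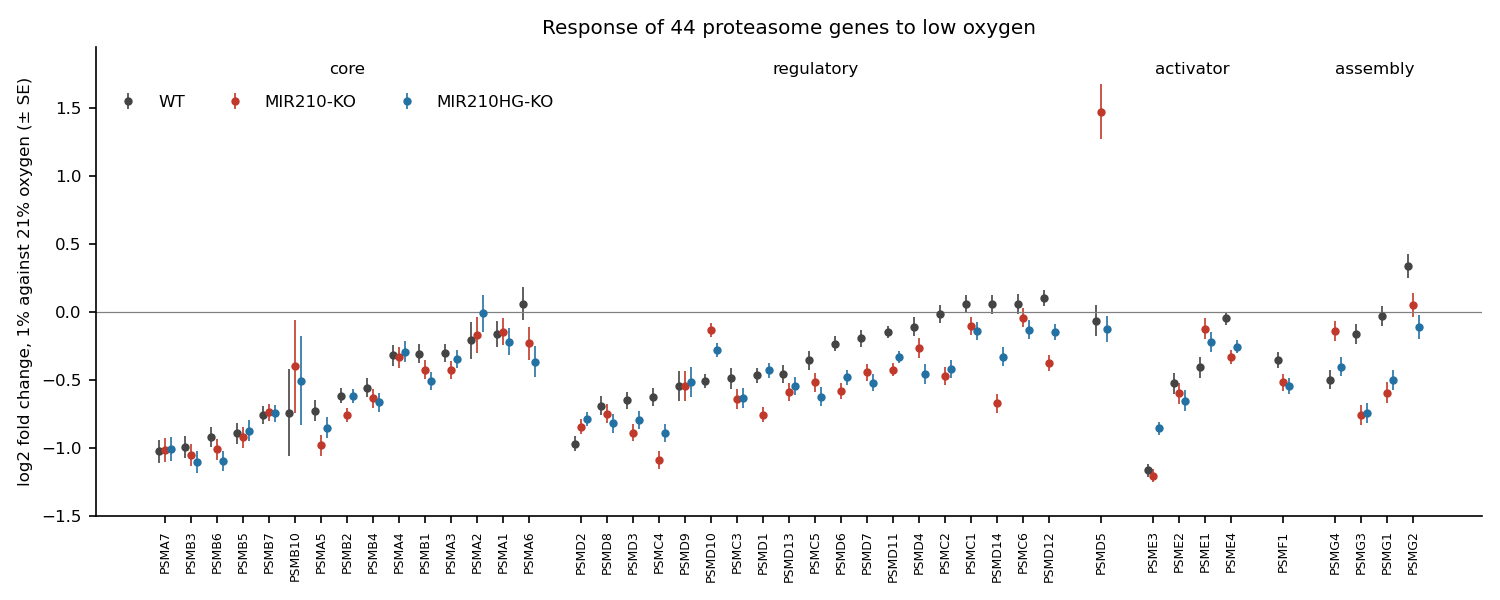
Log2 change from normoxia to hypoxia (± SE) of the 44 tested proteasome genes in WT, MIR210-KO and MIR210HG-KO, ordered by part. Most points lie below 0; PSME3, PSMA7, PSMB3 and PSMB6 are among the lowest in all 3 genotypes, and PSMD5 is raised in MIR210-KO alone of the 3 (1.48).

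Without the 4 libraries that stood apart, 34 genes were lower and 0 higher in WT (30.5 and 29.1% of the 20711 genes of that fit), and the median there was -0.52, beside 0.02 over all genes. The counts were then 35 lower in MIR210-KO (30.7% of all genes) and 36 in MIR210HG-KO (29.6%). Of the 31 calls in WT, 29 were also made without those libraries, as were 35 of 35 in MIR210-KO and 36 of 37 in MIR210HG-KO. With the library's balance of long and short genes as a covariate, a value that itself differed between the oxygen levels (group means -0.26 to -0.18 in normoxia and 0.11 to 0.29 in hypoxia), the medians were -0.20, -0.32 and -0.27; that balance and oxygen cannot be told apart here.

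**Figure D3:**
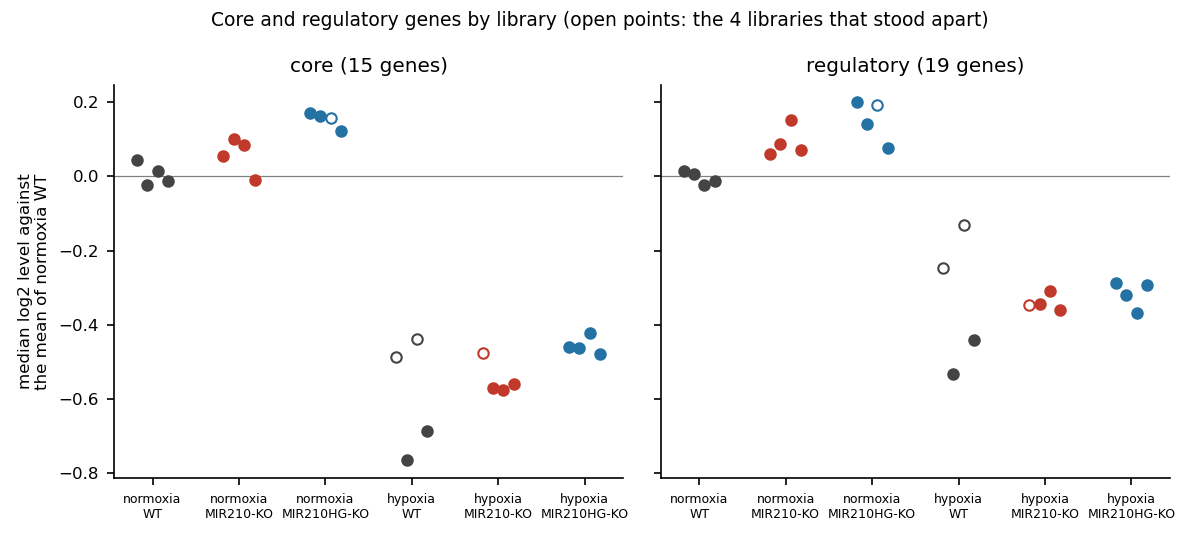
Median log2 level of the core and of the regulatory genes in each of the 24 libraries, relative to the mean of normoxia WT; open points are the 4 libraries that stood apart. All hypoxia libraries lie below all normoxia libraries, and hypoxia WT 1 and 3 lie above hypoxia WT 2 and 4 (core -0.49 and -0.44 against -0.77 and -0.69).

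The median oxygen change was -0.62 over 15 core genes and -0.36 over 19 regulatory genes in WT, -0.63 and -0.55 in MIR210-KO, and -0.62 and -0.48 in MIR210HG-KO. Called lower were 12 of 15, 11 of 15 and 12 of 15 core genes and 13 of 19, 17 of 19 and 17 of 19 regulatory genes, in the same order. No test of core against regulatory genes was made. Within the core the medians were lowest for the inner ring: 8, 7 and 7 of 8 tested PSMB genes were lower (medians -0.75, -0.75 and -0.71), against 4, 4 and 5 of 7 PSMA genes (-0.30, -0.33 and -0.35), a family that holds 3 of the genes with shared coding bases.

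The 3 proteases of the constitutive core fell in each genotype. PSMB5, the chymotrypsin-like protease, stood at 207, 202, 209.7 and 204 CPM in the normoxia WT libraries 1 to 4 and at 117, 91.0, 135 and 100.2 in hypoxia WT. In MIR210-KO it went from 189, 207, 208 and 195 to 118, 93.0, 106 and 105, and in MIR210HG-KO from 282, 265, 273 and 263 to 138, 152, 149 and 151. Every hypoxia library lay below every normoxia library of its genotype, and the log2 changes were -0.89 ± 0.078 (SE, edgeR adjusted p = 1.74e-11), -0.92 ± 0.078 and -0.88 ± 0.078.

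PSMB6, the caspase-like protease, was at 114, 108, 103 and 109 CPM in normoxia WT and at 64.4, 47.7, 65.9 and 51.9 in hypoxia WT. Its MIR210-KO values were 98.7, 114, 110.1 and 110.5 in normoxia and 56.5, 49.3, 55.6 and 53.3 in hypoxia, and its MIR210HG-KO values 124, 118, 114 and 114 and 55.6, 57.1, 55.4 and 52.4. The groups did not overlap in any genotype, with log2 changes of -0.92, -1.01 and -1.10. PSMB7, the trypsin-like protease, was at 173, 161, 163 and 166 CPM in normoxia WT and 103, 87.7, 114 and 87.6 in hypoxia WT. Its values went from 180.5, 182, 196 and 191 to 122, 105, 111 and 112 in MIR210-KO and from 191, 185, 193 and 179 to 114, 111, 114 and 108 in MIR210HG-KO. Again no hypoxia library reached a normoxia library of its genotype, and the changes were -0.76, -0.74 and -0.75.

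Among the structural core genes the largest falls were in PSMB3 and PSMA7. PSMB3, an inner ring subunit, was at 163, 153, 164 and 152 CPM in normoxia WT and 88.4, 65.0, 93.1 and 71.1 in hypoxia WT, 167, 173, 182 and 167 and 92.8, 75.2, 79.3 and 84.2 in MIR210-KO, and 164, 158, 136 and 153 and 73.6, 68.9, 72.9 and 69.2 in MIR210HG-KO. Hypoxia and normoxia libraries did not overlap, and the log2 changes were -0.995 ± 0.081, -1.05 ± 0.081 and -1.10 ± 0.081. PSMA7, an outer ring subunit, was at 259.7, 248, 255 and 246 CPM in normoxia WT and 130.4, 102, 149 and 113 in hypoxia WT. In MIR210-KO it was at 146, 149.9, 162 and 155 and 85.4, 64.9, 81.6 and 71.4, and in MIR210HG-KO at 309, 284, 239 and 274 and 124, 143, 138 and 143. Its oxygen changes were -1.03, -1.02 and -1.01, on a level that was lower in MIR210-KO throughout.

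The interferon-inducible core protease PSMB10 had low levels in every group. Its libraries gave 0.977, 1.32, 0.967 and 1.04 CPM in normoxia WT, 1.13, 0.565, 0.585 and 0.799 in normoxia MIR210-KO and 0.617, 1.34, 0.596 and 1.31 in normoxia MIR210HG-KO. In hypoxia they gave 0.270, 0.726, 0.658 and 0.889 in WT, 0.399, 0.571, 0.831 and 0.566 in MIR210-KO and 0.663, 0.524, 0.886 and 0.605 in MIR210HG-KO. Its only call was a fall in hypoxia WT of -0.74 ± 0.32 (edgeR adjusted p = 0.0457), which was not made without the libraries that stood apart (-0.41, adjusted p = 0.291).

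Of the regulatory particle, 3, 4 and 4 of the 6 PSMC ATPases were lower in hypoxia in WT, MIR210-KO and MIR210HG-KO (medians -0.19, -0.50 and -0.52), as were 6, 8 and 8 of the 8 lid subunits (-0.21, -0.59 and -0.50) and 2, 3 and 3 of the base subunits PSMD1, PSMD2 and PSMD4 (-0.47, -0.76 and -0.46). PSMC4, an ATPase, stood at 125, 124, 116 and 120.2 CPM in normoxia WT and 83.6, 67.3, 90.4 and 72.9 in hypoxia WT. It went from 127, 127, 135 and 127 to 64.4, 58.4, 59.8 and 59.99 in MIR210-KO and from 141, 139, 119 and 128 to 69.5, 72.4, 72.1 and 69.9 in MIR210HG-KO. The groups did not overlap, and the fall was -1.09 ± 0.068 in MIR210-KO (edgeR adjusted p = 1.68e-14), -0.63 in WT and -0.89 in MIR210HG-KO.

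PSMC5, another ATPase, was at 110.5, 107, 108 and 105 CPM in normoxia WT and 90.7, 68.9, 98.5 and 79.3 in hypoxia WT, at 135, 143, 147 and 143 and 100.4, 95.8, 104 and 96.6 in MIR210-KO, and at 124, 119, 112 and 108 and 74.2, 74.9, 73.2 and 78.0 in MIR210HG-KO. No hypoxia library reached a normoxia library of its genotype, with changes of -0.36, -0.52 and -0.62. PSMD13, a lid subunit encoded on the same chromosome arm as MIR210, was at 123, 122, 127 and 121 CPM in normoxia WT and 94.9, 74.4, 104 and 84.8 in hypoxia WT. Its values were 88.5, 91.6, 96.9 and 94.2 and 61.6, 62.3, 59.0 and 64.0 in MIR210-KO, and 121, 118, 123 and 115 and 80.2, 83.8, 81.2 and 82.9 in MIR210HG-KO. It fell in each genotype (-0.46, -0.59 and -0.54), with no overlap.

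The lid subunits PSMD14 and PSMD12 were called lower in hypoxia in both knockouts and were not called in WT. PSMD14, which removes ubiquitin from substrates, was at 95.1, 101, 96.9 and 102 CPM in normoxia WT and 113, 90.7, 115 and 92.2 in hypoxia WT, groups that overlapped (0.06, edgeR adjusted p = 0.501). In MIR210-KO it fell from 134, 131, 135 and 124 to 87.1, 83.0, 82.6 and 76.8 (-0.67 ± 0.069, adjusted p = 8.04e-10), and in MIR210HG-KO from 99.2, 98.9, 116 and 100.3 to 81.7, 83.1, 76.3 and 88.5 (-0.33). The MIR210-KO response differed from that of WT by -0.73 ± 0.097 (edgeR interaction, adjusted p = 1.01e-06), and by -0.59 without the libraries that stood apart. The MIR210HG-KO response differed from WT by -0.39 (adjusted p = 0.00416), but by -0.16 without those libraries, where the call was lost (adjusted p = 0.0901).

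PSMD12 was at 102, 102, 104 and 105 CPM in normoxia WT and 117, 103, 116 and 106 in hypoxia WT. It was at 149, 145, 147 and 137 and 110.1, 119, 110.4 and 105 in MIR210-KO and at 102, 102, 118 and 99.7 and 96.9, 101, 85.9 and 96.3 in MIR210HG-KO. Normoxia and hypoxia overlapped in WT (0.10) and were apart in MIR210-KO (-0.38), and the small fall in MIR210HG-KO (-0.15) was not called without the libraries that stood apart. Its response in MIR210-KO differed from WT by -0.48 ± 0.083 (edgeR adjusted p = 5.50e-05) and stayed called without the libraries that stood apart (-0.39). The base chaperone PSMD10 went the other way: 118, 116, 115 and 119 CPM in normoxia WT and 90.1, 76.8, 86.8 and 75.8 in hypoxia WT, 124, 122, 127 and 119.6 and 112, 111, 117 and 109 in MIR210-KO, 141, 139, 144 and 136 and 117, 118, 108 and 118 in MIR210HG-KO. Its oxygen differences were -0.51 for WT, -0.13 for MIR210-KO and -0.28 for MIR210HG-KO (all called), and both knockouts fell less than WT (interactions 0.37 and 0.23, edgeR adjusted p = 0.00029 and 0.0257).

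The largest fall of any proteasome gene in WT and in MIR210-KO was that of PSME3, the nuclear activator. It stood at 288, 295, 284 and 290.3 CPM in normoxia WT and 138, 119, 132 and 127 in hypoxia WT, and at 287, 295, 286 and 279 and 122, 124, 126 and 124 in MIR210-KO. In MIR210HG-KO it went from 245, 234, 252 and 245 to 139, 129, 132 and 139. No groups overlapped across oxygen, and the changes were -1.17 ± 0.047 (edgeR adjusted p = 2.17e-19), -1.21 ± 0.047 (adjusted p = 2.08e-19) and -0.86 ± 0.047 (adjusted p = 1.15e-15). The smaller fall in MIR210HG-KO differed from that in WT by 0.31 ± 0.066 (adjusted p = 0.000866) and from that in MIR210-KO by 0.35 (adjusted p = 0.0016), on a lower level in normoxia.

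PSME1 and PSME2, which together form the interferon-inducible activator, had smaller changes. PSME1 was at 33.9, 32.6, 30.4 and 30.2 CPM in normoxia WT, 32.1, 33.7, 36.6 and 31.6 in normoxia MIR210-KO and 36.2, 40.7, 43.1 and 38.3 in normoxia MIR210HG-KO. Its hypoxia values were 24.6, 21.3, 28.7 and 21.3 in WT, 30.8, 29.7, 30.6 and 31.8 in MIR210-KO and 34.6, 35.0, 33.2 and 33.1 in MIR210HG-KO. It fell in WT (-0.41) and MIR210HG-KO (-0.22) and was at -0.12 in MIR210-KO (edgeR adjusted p = 0.164). PSME2 was at 43.9, 45.00, 47.5 and 41.1 CPM in normoxia WT, 35.6, 39.5, 39.9 and 37.1 in MIR210-KO and 58.9, 60.1, 66.0 and 54.2 in MIR210HG-KO. Its hypoxia values were 34.2, 27.9, 35.6 and 25.8 in WT, 24.9, 25.3, 25.5 and 24.8 in MIR210-KO and 38.8, 38.8, 35.8 and 38.7 in MIR210HG-KO, a fall in each genotype (-0.52, -0.60 and -0.65) without overlap. The inhibitor PSMF1 fell by 0.35, 0.52 and 0.54 on the log2 scale.

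The assembly factors PSMG1 to PSMG4, chaperones of the core particle, did not move together: in WT 1 was lower and 1 higher, and 2 of 4 in MIR210-KO and 3 of 4 in MIR210HG-KO were lower. PSMG1 was at 78.5, 75.3, 72.8 and 73.0 CPM in normoxia WT and 82.1, 64.0, 83.5 and 63.6 in hypoxia WT, groups that overlapped. It fell from 70.2, 66.2, 70.7 and 64.7 to 43.9, 46.9, 41.3 and 47.7 in MIR210-KO (-0.60) and from 113, 112, 134 and 114 to 86.5, 86.0, 79.7 and 82.8 in MIR210HG-KO (-0.50). These responses differed from that of WT by -0.56 and -0.47 (edgeR interactions, adjusted p = 0.000164 and 0.00148). PSMG2 was the only proteasome gene called higher in hypoxia WT, from 26.4, 22.0, 26.5 and 27.8 to 37.0, 28.7, 34.7 and 29.4 CPM (0.34 ± 0.089, edgeR adjusted p = 0.0016), and the call was lost without the libraries that stood apart (0.18, adjusted p = 0.0646).

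For PSMG2 the other groups gave 26.8, 27.9, 25.9 and 23.1 CPM in normoxia and 26.6, 25.2, 29.4 and 26.3 in hypoxia MIR210-KO, and 23.5, 26.6, 29.8 and 25.1 and 22.9, 28.0, 22.2 and 24.4 in MIR210HG-KO. PSMG3 was at 75.5, 76.9, 68.4 and 72.1 CPM in normoxia WT and 66.4, 53.6, 76.4 and 65.8 in hypoxia WT, 84.1, 85.7, 92.3 and 89.7 and 58.0, 50.1, 47.4 and 52.0 in MIR210-KO, and 59.5, 65.8, 58.3 and 59.4 and 35.2, 36.9, 37.3 and 35.8 in MIR210HG-KO. Its falls in MIR210-KO (-0.76) and MIR210HG-KO (-0.74) exceeded the change in WT (-0.16), by -0.60 and -0.58 (edgeR interactions, adjusted p = 5.08e-05 and 0.000131). Both remained called without the libraries that stood apart (-0.52 and -0.47). PSMG4 was at 44.4, 43.7, 44.6 and 36.7 CPM in normoxia WT and 32.8, 28.7, 30.1 and 28.4 in hypoxia WT, 22.8, 21.6, 24.1 and 25.1 and 19.5, 20.7, 21.6 and 23.3 in MIR210-KO, and 37.6, 37.1, 33.3 and 34.8 and 25.4, 27.9, 26.2 and 28.5 in MIR210HG-KO. It fell in WT (-0.50) and MIR210HG-KO (-0.40), and in MIR210-KO, where its level in normoxia was already lowest, the change was -0.14 (adjusted p = 0.111).

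Across genotypes, 27 of the 44 genes were lower in hypoxia in all 3 (19.6% of all genes) and 7 were lower in both knockouts but not called in WT (3.63%). Another 4 (PSMA1, PSMA2, PSMC1, PSMC6) were called in none (20.3%). PSMA1 and PSMA2 are among the genes with most of their coding bases shared. PSMC1 shares 75.8% of its exon bases with NRDE2 on the opposite strand, and the strand setting of the counting is not given in the sources used here. PSMC6 shares 0% of its exon bases. Of the other genes with most coding bases shared, PSMD9 was lower in all 3 genotypes, PSMA6 in MIR210HG-KO alone and PSMB10 in WT alone. Any part of shared bases in these calls was not tested. The difference between genotypes was tested itself. The response of MIR210-KO was lower than that of WT for 12 genes and higher for 4 (14.0 and 12.5% of all genes), and that of MIR210HG-KO was lower for 13 and higher for 2 (12.2 and 10.2%). Of these calls 15 of 16 and 6 of 15 were also made without the 4 libraries that stood apart, and the median differences of -0.13 in both cases were then 0.023 and 0.032. The responses of MIR210HG-KO and MIR210-KO differed for 3 genes upward and 1 downward (2.03 and 1.51% of all genes). These 3 sets of differences share libraries with each other.

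Of the 8 lid subunits, 6 (PSMD3, PSMD6, PSMD7, PSMD11, PSMD12 and PSMD14) were among the 12 genes with a lower response in MIR210-KO than in WT, at -0.24 to -0.73, and no core gene was called in that interaction in either direction. The calls for PSMD6, PSMD7, PSMD11, PSMD12 and PSMD14 in the interaction of MIR210HG-KO with WT were all lost without the libraries that stood apart. In MIR210-KO the call for PSMD7 was lost there.

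The genes around the proteasome were read from a list of 35 transcription factors, further subunits and ubiquitin genes, of which 34 were tested. In hypoxia 16 were higher and 11 lower in WT (29.6 and 30.7% of all genes). In MIR210-KO 4 were higher and 22 lower (29.3 and 29.5%), and in MIR210HG-KO 3 and 18 (25.7 and 28.3%). Without the libraries that stood apart these counts were 14 and 13, 3 and 24, and 4 and 17. The list was made with results of these data known. With all libraries, 5 of the 10 further subunits were called higher and 4 lower in WT, and of the 15 ubiquitin genes 5 and 5. In MIR210-KO these counts were 0 and 7, and 1 and 11, and in MIR210HG-KO 0 and 5, and 0 and 10. Among the genes that fell in each genotype were POMP, a chaperone of core assembly (-0.69, -0.62 and -0.56), and the ubiquitin receptor ADRM1 (-0.58, -1.08 and -0.89). Others were the lid component SEM1 (-0.73, -0.52 and -0.52), the ubiquitin-activating enzyme UBA1 (-0.83, -0.64 and -0.69) and the segregase VCP (-0.68, -0.85 and -0.63).

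Of the 8 transcription factors on the list, 6 were called higher and 2 lower in WT, 3 and 4 in MIR210-KO, and 3 and 3 in MIR210HG-KO. NFE2L1 rose in each genotype, by 0.34, 0.14 and 0.17. NGLY1, the enzyme that deglycosylates it, rose by 0.84, 0.29 and 0.19. MAFF, a small partner of such factors, rose by 2.27, 0.74 and 1.02. These values are transcript levels, and the processing that activates the NFE2L1 protein was not measured. Any part of these genes in the fall of the subunits was not tested.

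Promoter windows of 250 bases before to 50 after the annotated start were taken from RefSeq (GRCh38.p14) for 40 of the 46 genes. There were 48 windows, so some genes had more than 1. PSMA7, PSMB1, PSMB6, PSMB7, PSMD4 and PSMG3 had none. The core of the antioxidant response element, TGACNNNGC, which such factors can bind, was searched on both strands. It was found in any window of 14 of the 40 genes (35.0%), against 16.1% of all 27305 genes and 18.0% of 14896 protein-coding genes. It was in 2 of 13 core genes and 6 of 18 regulatory genes. The CCAAT box was in 19 of the 40 genes (47.5%, against 39.7% of all genes). Matches before the start are shown for genes of the core, the ATPase ring, the lid and the base chaperones, since these are the parts whose responses are compared, 1 match per gene (PSMD9 has another, 149 bases before its start), each with 6 flanking bases on either side, 5' to 3' on the strand of the match, with the match in capitals.
PSMA4: gcacgaTGACTCTGCaccgcc
PSMB3: ccgtttTGACTTTGCaaccaa
PSMC5: cggcgcTGACACAGCagatcc
PSMD3: ctttgtTGACTCGGCcatcgg
PSMD12: aaaaccTGACGCTGCaggctg
PSMD9: ttccggTGACCCAGCtccgcc
PSMD5: tacagtTGACACGGCcctaac

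The matches lie 126 (PSMA4), 104 (PSMB3), 57 (PSMC5), 37 (PSMD3), 165 (PSMD12), 102 (PSMD9) and 134 (PSMD5) bases before the start. The oxygen response was close in genes with and without a match, a comparison of medians with no test. Genes without a window, among them the proteases PSMB6 and PSMB7 and the outer ring gene PSMA7, are not in it. The 14 with a match had medians of -0.38, -0.53 and -0.47 in WT, MIR210-KO and MIR210HG-KO, and the 24 tested genes with a window but no match had medians of -0.40, -0.50 and -0.50. A match is a stretch of letters, not a measured binding site.

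Between genotypes, the proteasome genes were compared at each oxygen level. In normoxia MIR210-KO had 11 genes higher and 11 lower than WT (22.6 and 21.6% of all genes) with a median of 0.04, and MIR210HG-KO had 16 higher and 3 lower (15.6 and 19.6%) with a median of 0.12. In hypoxia MIR210-KO had 4 higher and 19 lower (28.2 and 27.7%; median -0.13), and MIR210HG-KO 16 higher and 11 lower (24.4 and 30.2%; median 0.07). Without the libraries that stood apart the normoxia counts were 14 higher and 12 lower in MIR210-KO (25.7 and 24.4% of all genes of that fit) and 25 and 3 in MIR210HG-KO (18.7 and 20.8%). In hypoxia they were 10 and 16 (26.7 and 25.6%), and 25 and 7 (23.8 and 27.9%). MIR210HG-KO exceeded MIR210-KO for 19 genes and was below it for 7 in normoxia (23.4 and 25.8%), and for 20 and 4 in hypoxia (26.0 and 29.0%). These comparisons share their WT or knockout libraries.

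Several differences between genotypes were shared with other genes of the same chromosome. The 7 proteasome genes on chromosome 14 (PSMA3, PSMA6, PSMB5, PSMC1, PSMC6, PSME1 and PSME2) belong to the outer ring, the inner ring, the ATPases and an activator, and all 7 were called higher in MIR210HG-KO than in WT at both oxygen levels. Their medians were 0.53 in normoxia and 0.41 in hypoxia, beside 0.40 and 0.36 over all 653 tested genes of that chromosome. In MIR210-KO the 5 proteasome genes on chromosome 11 (PSMA1, PSMC3 and PSMD13) and chromosome 20 (PSMA7 and PSMF1) were all called lower than in WT at both oxygen levels, with medians of -0.41 and -0.56. The medians over all genes were -0.50 and -0.48 for the 1043 of chromosome 11 and -0.46 and -0.47 for the 499 of chromosome 20. These chromosomes were picked after their values were seen, and the number of copies of a chromosome was not measured.

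PSMA6, on chromosome 14, gave 4.85, 4.30, 3.91 and 4.19 CPM in normoxia WT, 3.96, 4.64, 5.47 and 3.80 in MIR210-KO and 7.48, 7.45, 8.28 and 7.62 in MIR210HG-KO. Its values in hypoxia were 4.26, 4.36, 4.63 and 4.77 in WT, 3.65, 3.242, 4.32 and 4.03 in MIR210-KO and 5.83, 5.14, 6.44 and 6.48 in MIR210HG-KO. The MIR210HG-KO libraries were above all others at either oxygen level, with 0.84 ± 0.12 against WT in normoxia (edgeR adjusted p = 1.06e-06), beside a median of 0.43 for the 59 tested genes within 5 Mb. PSMB5 was higher there by 0.40 (neighbours 0.35) and by 0.41 in hypoxia. PSMA7, on chromosome 20, was lower in MIR210-KO than in WT, at -0.72 ± 0.087 in normoxia (edgeR adjusted p = 3.47e-08) and -0.71 ± 0.088 in hypoxia, beside neighbours at -0.50 and -0.46. PSMD13, on chromosome 11, was lower there, at -0.41 and -0.54, beside neighbours at -0.63 and -0.43.

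On chromosome 17, PSMD12 and PSMC5 were higher in normoxia MIR210-KO than in WT, by 0.49 ± 0.059 and 0.40 ± 0.069, beside neighbours at 0.37 and 0.35. In hypoxia PSMC5 remained higher (0.23) and PSMD12 was at 0.01, while its neighbours were at 0.39. Over the 43 tested genes other than PSMD5, the change of a proteasome gene and the median of its neighbours within 5 Mb had a Pearson r of 0.75 for MIR210-KO and 0.74 for MIR210HG-KO against WT in normoxia, and of 0.66 and 0.58 in hypoxia. The points share libraries, and genes on a chromosome share neighbours. For the response to oxygen the same r was 0.40, 0.28 and 0.43 in WT, MIR210-KO and MIR210HG-KO, and 38, 41 and 42 of the 43 genes lay below their neighbours' median.

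**Figure D4:**
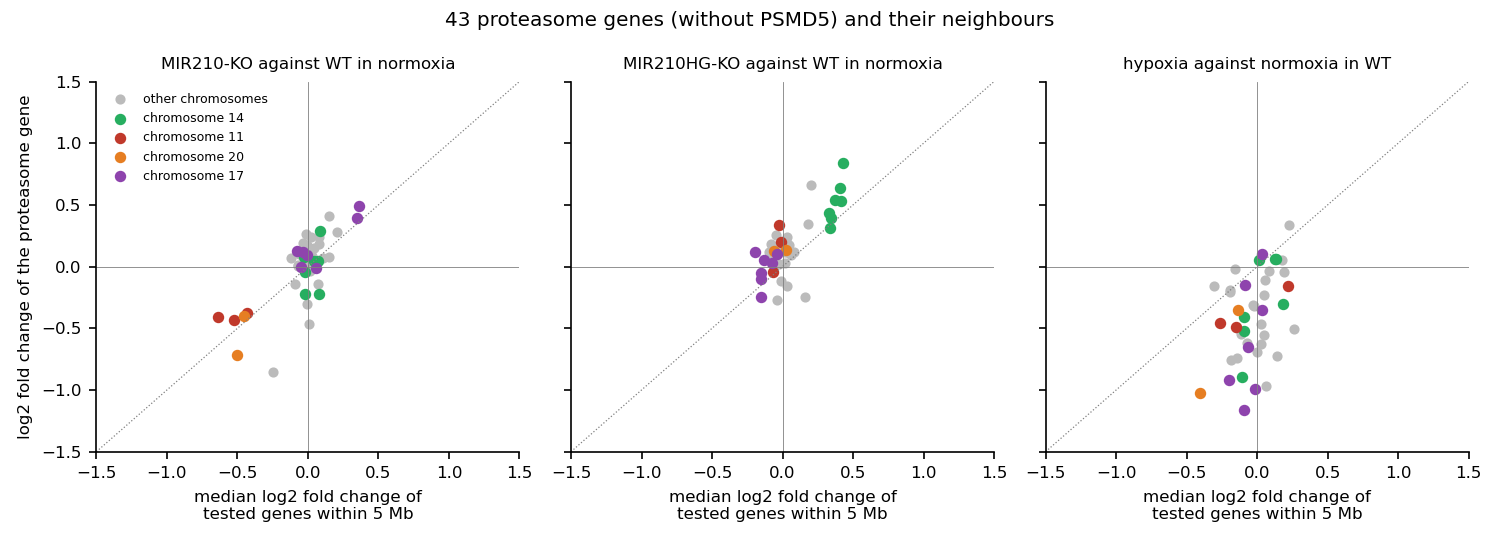
Log2 change of 43 proteasome genes against the median change of the tested genes within 5 Mb, for MIR210-KO against WT and MIR210HG-KO against WT in normoxia and for hypoxia against normoxia in WT; genes of chromosomes 11, 14, 17 and 20 are coloured. In MIR210-KO the genes of chromosomes 11 and 20 lie below 0, and in MIR210HG-KO those of chromosome 14 lie above 0. Other coloured groups have medians nearer 0, such as chromosome 14 in MIR210-KO (0.04) and chromosome 17 in MIR210HG-KO (0.03). Over all 43 genes r with the neighbours was 0.75 and 0.74. In the oxygen panel 38 of the 43 lie below the line of equal change.

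The largest changes of 3 assembly factors are given beside those of their neighbours. PSMG4 was lower in normoxia MIR210-KO than in WT, at -0.86 ± 0.073 (edgeR adjusted p = 1.92e-11), with neighbours at -0.25. PSMG1 was higher in normoxia MIR210HG-KO by 0.66 ± 0.075 (adjusted p = 1.79e-08), with neighbours at 0.20, and lower in hypoxia MIR210-KO, at -0.70 ± 0.076 (adjusted p = 1.85e-09; -0.49 without the libraries that stood apart), with neighbours at -0.15. PSMG3 was lower in hypoxia MIR210HG-KO, at -0.85 ± 0.075 (adjusted p = 3.16e-11), with neighbours at 0.01. PSMD10 was higher in hypoxia in MIR210-KO (0.45) and in MIR210HG-KO (0.49) than in WT, and PAAF1, another chaperone of the base and no PSM gene by name, was lower in MIR210-KO at both oxygen levels (-0.60 and -0.99).

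PSMD5 had the largest genotype differences of all 44 genes, and they ran in opposite directions in the knockouts. It encodes a chaperone that binds an ATPase of the base and is released before the finished particle forms. PSMD5 was at 4.82, 4.21, 5.03 and 4.86 CPM in normoxia WT, 0.601, 0.444, 0.459 and 0.559 in normoxia MIR210-KO and 16.3, 15.6, 19.2 and 18.5 in normoxia MIR210HG-KO, from 509, 53 and 1793 counts over the 4 libraries. In hypoxia it was at 4.92, 4.61, 3.40 and 5.20 in WT, 1.40, 1.63, 1.33 and 1.42 in MIR210-KO and 16.8, 16.2, 15.3 and 15.4 in MIR210HG-KO. Every MIR210-KO library lay below every WT library, and every MIR210HG-KO library above, at both oxygen levels.

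Against WT in normoxia, PSMD5 was lower in MIR210-KO, at -3.18 ± 0.17 on the log2 scale (edgeR adjusted p = 2.97e-16; means 0.516 ± 0.0761 and 4.73 ± 0.355 CPM, SD, n = 4 each), and higher in MIR210HG-KO, at 1.88 ± 0.11 (adjusted p = 2.96e-15). In hypoxia the differences from WT were -1.64 ± 0.13 in MIR210-KO (adjusted p = 1.85e-12) and 1.81 ± 0.1 in MIR210HG-KO (adjusted p = 1.14e-15). Oxygen changed PSMD5 in MIR210-KO, where it rose by 1.48 ± 0.2 (adjusted p = 1.61e-07), while WT was at -0.06 ± 0.11 (adjusted p = 0.651) and MIR210HG-KO at -0.12 ± 0.095 (adjusted p = 0.279). The rise in MIR210-KO differed from the WT response by 1.54 ± 0.23 (adjusted p = 6.42e-06), and by 1.44 without the libraries that stood apart, and left the gene below its WT level. In hypoxia, 34 of the other 43 proteasome genes were called lower in this genotype.

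**Figure D5:**
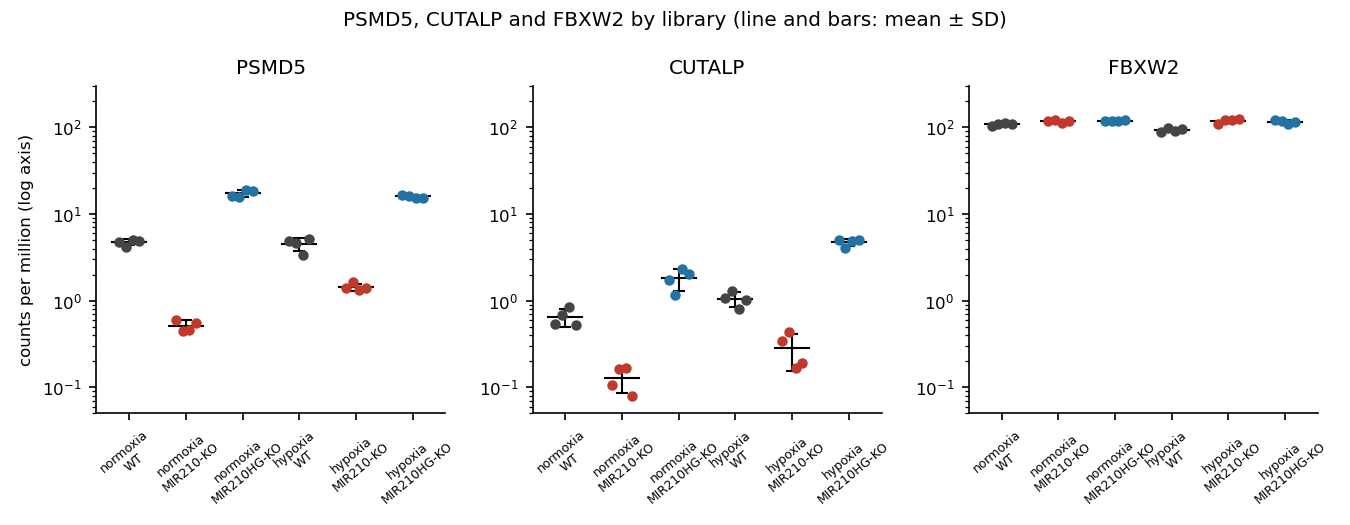
CPM (log axis) of PSMD5, the divergent CUTALP and the nearby gene FBXW2 in each of the 24 libraries, with the mean ± SD of each group. PSMD5 and CUTALP are lowest in MIR210-KO and highest in MIR210HG-KO at both oxygen levels, while the FBXW2 group means lie between 92.8 and 119 CPM.

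The gene lies on chromosome 9 (GRCh38, 120815496 to 120842984, minus strand), away from the targeted locus on chromosome 11. The 57 tested genes within 5 Mb had medians of 0.03 and 0.06 for MIR210-KO and MIR210HG-KO against WT in normoxia, and of 0.13 and 0.05 in hypoxia. Of the 9 tested genes within 250 kb, only CUTALP was also called lower in MIR210-KO and higher in MIR210HG-KO than in WT at both oxygen levels. It is a transcribed pseudogene on the opposite strand whose RefSeq start lies 153 bases from that of PSMD5 and which is transcribed away from it. CUTALP was at 0.539, 0.682, 0.851 and 0.519 CPM in normoxia WT, 0.106, 0.162, 0.167 and 0.0799 in MIR210-KO and 1.74, 1.15, 2.35 and 2.05 in MIR210HG-KO. Its values in hypoxia were 1.08, 1.30, 0.795 and 1.02 in WT, 0.342, 0.441, 0.166 and 0.189 in MIR210-KO and 5.00, 4.09, 4.94 and 4.98 in MIR210HG-KO. No groups of different genotype overlapped at a given oxygen level, although the normoxia MIR210-KO value rests on 13 counts.

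CUTALP differed from WT by -2.30 ± 0.4 in MIR210-KO and 1.49 ± 0.25 in MIR210HG-KO in normoxia, and by -1.83 and 2.17 in hypoxia, each called by edgeR's test. It rose in hypoxia in each genotype (0.70, 1.17 and 1.38), whereas PSMD5 rose in MIR210-KO. On the other side of PSMD5 lie B3GNT10 and then FBXW2. B3GNT10 differed from WT by 0.03 in MIR210-KO and 0.10 in MIR210HG-KO in normoxia, neither called, and by 0.36 and 0.67 in hypoxia, both called. FBXW2 had group means from 92.8 to 119 CPM and differed by 0.11 (not called) and 0.14 in normoxia and by 0.35 and 0.32 in hypoxia (all 3 called). Other calls within 250 kb included C5, at -1.30 in hypoxia MIR210-KO, and TRAF1, at -0.84 and -0.66 in normoxia and hypoxia MIR210HG-KO. CDK5RAP2 was lower in normoxia MIR210-KO (-0.21) and higher in hypoxia MIR210HG-KO (0.22). In the annotation of the counts CUTALP (120824828 to 120854385) starts inside PSMD5 but shares 0 of its exon bases. The strand setting of the counting is not given, so reads from PSMD5 introns may have been counted for CUTALP. The values of CUTALP may therefore not be independent of those of PSMD5.

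The region between the starts of PSMD5 and CUTALP holds a match to TGACNNNGC. The 250 bases before the PSMD5 start (chr9:120842923-120843172, GRCh38.p14, minus strand, from RefSeq) are shown. They hold the region between the starts, from which both genes that moved are read outward. They also run past the CUTALP start (120843075) into that gene. The match is in capitals.
PSMD5 upstream: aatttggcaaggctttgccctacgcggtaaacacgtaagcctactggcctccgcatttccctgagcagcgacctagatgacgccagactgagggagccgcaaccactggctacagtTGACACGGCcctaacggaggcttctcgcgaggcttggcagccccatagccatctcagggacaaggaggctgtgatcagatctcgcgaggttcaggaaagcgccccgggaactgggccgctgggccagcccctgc

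The match lies at 120843048 to 120843056, between the PSMD5 start (120842922) and the CUTALP start (120843075). No CCAAT box was found in the PSMD5 window. The methylation and the sequence of this region in the edited lines were not measured.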

How the data were processed

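Total RNA from 24 HEK293T samples was sequenced. The deposited values are raw counts per gene, 1 table for each oxygen level. STAR 2.6.1d, featureCounts 1.5.0-p3, DESeq2 1.20.0, edgeR 3.24.3 and the build GRCh38 are named by the submitters' processing notes, with no roles given, and the strand setting is not given in the sources used here. The tables were joined by gene identifier. Library totals were 25556776 to 37858947 counts.

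After filterByExpr (19952 genes kept) and TMM scaling, edgeR (4.0.16, R 4.3.3) was fitted once to all 24 libraries, with 6 group means and its quasi-likelihood F test. P-values were two-sided, adjusted by Benjamini-Hochberg over all genes, and called at 0.05. An interaction is the difference between 2 genotypes' oxygen responses. CPM are TMM-scaled, and log2 changes are first group minus second. Only the edgeR fit, and not the other steps, was tested on simulated data.

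Named in every library are PSMD5, PSMD13, the core proteases, the interferon-inducible genes and, for each comparison, the called genes with the 2 largest changes in each direction. Members and lists were chosen with earlier results of these data known. Alternatives were other scaling factors (RLE, upper quartile), DESeq2 (1.42.0), other filters (none, or 1 CPM in 4 libraries), only the groups compared, mitochondrial genes left out, a replicate block and leaving out each library. Added after seeing the data were fits without the 4 libraries that stood apart and with the long-to-short gene balance as a covariate. Replicate numbers were checked for pairing and did not pair the samples. Some values of the marker and related gene lists are not reported here.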

Additional observations from a re-analysis of the deposited data

Results flagged for a closer look

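The criterion of Dixon was applied to 21 genes and to the median of the proteasome genes, each in 6 groups of 4 libraries. Of the 132 groups examined, 8 had a library far from the other 3, and chance gives about 1 in 20. Of these 8, 3 were high values in normoxia MIR210HG-KO library 3, one of the libraries that stood apart: PSMD12 at 118 CPM, PSMD14 at 116 and PSMG1 at 134. The low values in hypoxia MIR210HG-KO library 3 were PSMD10 at 108 CPM and PSME2 at 35.8. The others were PSMC4 at 135 CPM in normoxia MIR210-KO library 3, PSMG3 at 65.8 in normoxia MIR210HG-KO library 2 and PSMG4 at 36.7 in normoxia WT library 4.

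The response to hypoxia differed between genotypes by edgeR's interaction test for the following genes, on the log2 scale. For MIR210-KO against WT it was lower for PSMD14 (-0.73), PSMG3 (-0.60), PSMG1 (-0.56), PSMD12 (-0.48), PSMC4 (-0.46), PSMC2 (-0.46), PSMD6 (-0.35), PSMD1 (-0.29), PSMD11 (-0.28), PSME4 (-0.28), PSMD7 (-0.25) and PSMD3 (-0.24). It was higher for PSMD5 (1.54), PSMD10 (0.37), PSMG4 (0.36) and PSME1 (0.29).

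For MIR210HG-KO against WT it was lower for PSMG3 (-0.58), PSMG1 (-0.47), PSMG2 (-0.45), PSMC2 (-0.40), PSMD14 (-0.39), PSMD4 (-0.35), PSMD7 (-0.33), PSMC4 (-0.27), PSMC5 (-0.27), PSMD6 (-0.25), PSMD12 (-0.25), PSME4 (-0.21) and PSMD11 (-0.19), and higher for PSME3 (0.31) and PSMD10 (0.23). Without the libraries that stood apart, PSMG3, PSMG1, PSMC2, PSME4, PSME3 and PSMD10 kept their calls.

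For MIR210HG-KO against MIR210-KO the response was lower for PSMD5 (-1.60) and higher for PSME3 (0.35), PSMD14 (0.34) and PSMD1 (0.33).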

How the results depend on the processing

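Over all alternatives, PSMD5 gave the same verdict in 234 of 240 values, counts of proteasome genes in 432 of 480 and medians in 223 of 240. Values of the other called genes were the same in 4724 cases, no longer called in 394, reversed in 7 and moved in 1. DESeq2, RLE factors and the filter at 1 CPM moved no count or median of the group; for the settings that did, the cause was not tested.

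Without the 4 libraries that stood apart, MIR210HG-KO against WT had 25 genes higher in normoxia (16 with all libraries), and 25 higher and 7 lower in hypoxia with a median of 0.17 (16, 11 and 0.07). There PSMC5 and PSMC2 turned to 0.017 and 0.029. MIR210-KO against WT in hypoxia had 10 higher and a median of -0.058 (4 and -0.13). MIR210HG-KO was below MIR210-KO in normoxia for 11 genes (7). In hypoxia WT 0 genes were higher, the median was -0.52 and PSMD5 was at 0.046. The median interaction of MIR210-KO with WT was 0.023. For MIR210HG-KO with WT it was 0.032, with 8 genes higher and 4 lower (2 and 13), and for MIR210HG-KO with MIR210-KO 5 were higher and 2 lower (3 and 1).

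With the gene balance as a covariate, the hypoxia medians were -0.20, -0.32 and -0.27, with 5 genes higher in WT and 24 lower in MIR210HG-KO (37). PSMD10 (0.0011) and PSMD4 (0.086) turned in MIR210-KO, as did PSME1 (0.12) and PSMD4 (0.0029) in MIR210HG-KO, and PSMD5 in MIR210HG-KO was called at -0.53. In normoxia MIR210HG-KO had 28 genes above WT, and its median against MIR210-KO was 0.18, or 0.24 in hypoxia. In hypoxia 7 were below WT. The interaction of MIR210HG-KO with WT had 5 higher and a median of -0.0093, and that with MIR210-KO 7 higher and a median of 0.085.

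Upper quartile factors moved the median of all genes by 0.14 in both knockouts' hypoxia comparisons, and the share of called genes that were higher from 49.8 to 64.1% in MIR210-KO and from 47.6 to 62.9% in MIR210HG-KO. The medians of the proteasome genes were then -0.29, -0.39 and -0.37, still below 0. In WT 2 were higher, PSMD5 was at 0.031 there and 0.011 in MIR210HG-KO, and PSMD10 at 0.0081 in MIR210-KO. MIR210-KO in hypoxia had 7 above WT, a rise of the higher share from 17.4 to 29.2%, and the interaction of MIR210HG-KO with WT had 7 lower, with that share at 30.0% (13.3%), while over all genes it went from 45.6 to 55.8%.

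With only the groups compared, 2 genes were higher in MIR210-KO and 6 lower in MIR210HG-KO than in WT in hypoxia. With no filter 7 were lower in that comparison. The interaction of MIR210HG-KO with WT had 1 gene higher with no filter and 1 with mitochondrial genes left out.

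Leaving out 1 library gave 7 to 10 genes lower in normoxia MIR210-KO than WT (7 without MIR210-KO 1 or 4). MIR210HG-KO against WT in hypoxia had 10 to 19 higher (10 without hypoxia WT 2) and 6 to 15 lower (6 without hypoxia WT 3, and 7 without hypoxia MIR210HG-KO 2 or 3). The median in hypoxia WT ranged from -0.47 (without hypoxia WT 3) to -0.33, and PSMD5 there from -0.14 to 0.053 (without hypoxia WT 3). The interaction of MIR210HG-KO with WT had 1 to 4 higher (4 without hypoxia WT 3, and 1 without any of 12 others), 7 to 15 lower (7 without hypoxia WT 3 or hypoxia MIR210HG-KO 3), a median of -0.19 to -0.062 and PSMD5 at -0.17 to 0.011. That of MIR210HG-KO with MIR210-KO had 1 to 4 higher (1 without normoxia MIR210-KO 2, normoxia MIR210HG-KO 2 or hypoxia MIR210HG-KO 1).

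Samples share only a replicate number: correlations of same-numbered samples ran from -0.22 to 0.199, with 5 of 60 over 0.1, and 16 of 60 were highest with their own number. With a replicate block, 15 genes were higher in hypoxia MIR210HG-KO than in WT (16) and 11 had a lower response in MIR210-KO (12), and PSMD5 in normoxia MIR210-KO was at -3.18. The calls lost were those of PSMA2 in hypoxia MIR210HG-KO against WT (0.31, edgeR adjusted p = 0.0612) and of PSMD3 in the interaction of MIR210-KO with WT (-0.24, adjusted p = 0.0534). Depth limits PSMB10, CUTALP and PSMD5 in MIR210-KO, the last with 53 counts over 4 libraries in normoxia.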
